A study of Mus musculus with 28 samples.

Results

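The 36 genes described here serve germ cells and meiosis, and they were chosen by name. They comprise 8 genes of the chromosome axis and synaptonemal complex, 6 of recombination, 11 of the piRNA pathway and germ granules, 5 regulators of germ cell development and 6 further germ cell and testis genes, out of 21755 protein-coding genes on chromosomes 1 to 19 and X (GENCODE M21, mm10). Each was found once in the annotation. For every gene, it was asked whether its start and body lie inside a domain of H3K9me2, the dimethylated form of lysine 9 of histone H3, and how wide that domain is.

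H3K9me2 domains were mapped in mouse embryonic stem cells (mESCs) of a KH2 line, a BL6/129 hybrid, in which both endogenous Ehmt2 alleles carry a dTAG degron and an mCherry reporter. EHMT2 is the methyltransferase that, together with EHMT1, places H3K9me2. The sorted groups, the only ones compared here, share this degron and a MERVL-GFP reporter, which reads out an endogenous retrovirus, and come from 1 clone. Cells were kept for 72 h in dTAG-13, the compound that degrades tagged EHMT2, or in its solvent DMSO, and were then separated by GFP. Cells without GFP are called mESCs, and cells with GFP 2-cell-like cells (2CLCs), since this uncommon state shares features with the 2-cell embryo. The retinoic acid receptor agonist TTNBP was also given, per the labels to 2 replicates that are not named, and per the study's methods with no such limit, so the sorted groups may mix cultures with and without it.

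The sorted groups are mESC DMSO, mESC dTAG, 2CLC DMSO and 2CLC dTAG, each with 3 immunoprecipitation and 3 input libraries, and bulk mESCs after 24 h in DMSO gave 2 of each kind, 28 libraries in all. The files analysed hold 1 list of domain positions for each sorted group, without replicate values, so no difference below could be compared with the spread between cultures and none was tested. Another list, called the unnamed set, states neither cell state nor treatment and is described apart. Library depth is unknown. The lists hold neither a level of the mark nor expression, so the cell states could not be checked against their marker genes. Boundaries lie on a 5 kb grid.

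In textbook accounts, germline genes are kept silent in mESCs and somatic cells by several layers of chromatin repression. These include DNA methylation at CpG-rich promoters, H3K9 methylation, and a variant Polycomb complex that is brought to promoters by E2F6 and by the MGA and MAX pair. H3K9me2 itself covers broad regions of gene-poor chromatin, and a repressed promoter need not have a domain around it. The meiotic genes encode the scaffold that pairs homologous chromosomes and the enzymes that break and repair their DNA. The piRNA genes encode the machinery that silences transposons in the germ line.

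Because E2F6 and the MGA and MAX pair act at promoters, promoter sequences are shown first. The table of promoters (RefSeq, GRCm38.p6, the build of mm10) held 32 of the 36 genes, and entries for Spo11, Tdrd6, Piwil2 and Tex15 were not among them. The 250 bases before the RefSeq start are printed for the 6 genes whose start lay in a domain in some but not all sorted sets. They run 5′ to 3′ along the gene's strand, and capitals mark TCCCGC, the core of the E2F6 motif (or GCGGGA, its reverse complement), and CACGTG, the E-box of MGA and MAX, which reads the same on both strands.
Sycp1, chr3:102936101-102936350, minus strand: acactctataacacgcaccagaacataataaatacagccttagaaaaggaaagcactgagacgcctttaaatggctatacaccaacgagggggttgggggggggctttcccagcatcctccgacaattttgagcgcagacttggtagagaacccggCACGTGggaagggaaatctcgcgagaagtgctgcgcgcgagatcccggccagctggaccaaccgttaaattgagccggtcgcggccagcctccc
Syce1, chr7:140787855-140788104, minus strand: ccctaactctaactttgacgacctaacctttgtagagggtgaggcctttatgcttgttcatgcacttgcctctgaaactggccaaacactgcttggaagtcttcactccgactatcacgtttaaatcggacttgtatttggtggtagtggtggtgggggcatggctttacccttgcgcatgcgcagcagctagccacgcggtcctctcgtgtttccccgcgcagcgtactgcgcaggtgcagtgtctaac
Asz1, chr6:18109062-18109311, minus strand: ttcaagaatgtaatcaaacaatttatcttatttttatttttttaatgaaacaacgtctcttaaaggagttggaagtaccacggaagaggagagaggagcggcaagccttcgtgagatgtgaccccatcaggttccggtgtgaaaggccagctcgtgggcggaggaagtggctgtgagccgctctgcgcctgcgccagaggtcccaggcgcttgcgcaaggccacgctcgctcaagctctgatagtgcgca
Dazl, chr17:50293621-50293870, minus strand: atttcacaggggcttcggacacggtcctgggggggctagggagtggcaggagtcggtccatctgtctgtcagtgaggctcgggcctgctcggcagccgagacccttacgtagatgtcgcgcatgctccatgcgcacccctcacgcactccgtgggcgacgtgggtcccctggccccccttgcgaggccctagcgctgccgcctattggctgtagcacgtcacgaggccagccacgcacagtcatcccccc
Tex101, chr7:24672051-24672300, minus strand: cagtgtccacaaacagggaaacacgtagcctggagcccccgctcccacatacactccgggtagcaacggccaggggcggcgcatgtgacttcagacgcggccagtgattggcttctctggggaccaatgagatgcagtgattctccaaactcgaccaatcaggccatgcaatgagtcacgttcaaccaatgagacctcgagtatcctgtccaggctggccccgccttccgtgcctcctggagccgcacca
Wfdc15a, chr2:164200118-164200367, minus strand: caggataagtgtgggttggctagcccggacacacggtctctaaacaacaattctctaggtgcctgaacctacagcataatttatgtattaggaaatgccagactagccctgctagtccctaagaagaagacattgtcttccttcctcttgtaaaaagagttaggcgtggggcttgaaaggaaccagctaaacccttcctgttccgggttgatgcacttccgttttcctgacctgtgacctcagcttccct
Among these 6, only the Sycp1 window held a match within the printed bases. The RefSeq start of Tex101 lies 4.63 kb from the GENCODE start used for the domain counts, and the other 5 lie within 0.016 kb of it.

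Nobox and Rpl10l are shown because their starts lay in a domain in all 4 sorted sets, with a single TCCCGC before Rpl10l.
Nobox, chr6:43309555-43309804, minus strand: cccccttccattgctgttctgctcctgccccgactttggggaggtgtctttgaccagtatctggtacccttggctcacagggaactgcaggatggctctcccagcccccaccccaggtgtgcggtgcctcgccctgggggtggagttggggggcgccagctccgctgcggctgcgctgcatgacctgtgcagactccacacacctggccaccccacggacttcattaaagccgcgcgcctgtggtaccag
Rpl10l, chr12:66284402-66284651, minus strand: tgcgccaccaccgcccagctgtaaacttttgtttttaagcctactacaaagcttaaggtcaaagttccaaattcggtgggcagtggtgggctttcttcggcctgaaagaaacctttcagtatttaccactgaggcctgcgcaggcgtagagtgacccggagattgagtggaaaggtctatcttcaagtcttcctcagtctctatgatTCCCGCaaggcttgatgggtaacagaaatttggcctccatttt
Hormad1 and Mael are shown for contrast, as genes outside domains at their starts in all 4 sorted sets whose promoters held both motifs. They were chosen after these matches were seen.
Hormad1, chr3:95559427-95559676, plus strand: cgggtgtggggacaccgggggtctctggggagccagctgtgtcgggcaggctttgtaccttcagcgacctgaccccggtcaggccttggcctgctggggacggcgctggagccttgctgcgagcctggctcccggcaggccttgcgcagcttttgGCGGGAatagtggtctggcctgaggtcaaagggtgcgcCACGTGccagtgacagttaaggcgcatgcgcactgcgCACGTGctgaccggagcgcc
Mael, chr1:166238745-166238994, minus strand: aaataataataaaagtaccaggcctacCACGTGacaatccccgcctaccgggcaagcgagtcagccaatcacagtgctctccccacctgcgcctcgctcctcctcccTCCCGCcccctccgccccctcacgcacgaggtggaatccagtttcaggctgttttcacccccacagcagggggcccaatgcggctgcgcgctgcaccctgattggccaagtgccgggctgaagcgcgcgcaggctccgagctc
The Hormad1 window held 2 E-boxes and 1 E2F6 core, and Mael held 1 E-box and 1 E2F6 core in the printed bases.

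The counts below use 300 bases, adding the 50 bases after the start, and the letters of both motifs were allowed to overlap. CACGTG stood in 13 of the 32 windows (40.6%), against 8.13% of all 16449 promoters. TCCCGC stood in 13 windows (40.6%), against 26.9% of all promoters. Both were present in 7 windows (21.9%), against 2.85% of all promoters, those of Sycp1, Sycp3, Hormad1, Stag3, Mael, Ddx4 and Slc25a31. The median observed to expected CpG ratio was 0.693 for these genes and 0.604 for all promoters, and the median GC share was 60.5% and 57%.

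The motifs were then set against the domains, noting that most of the matched genes lay outside. Of the 24 matched genes with a start in no sorted set, 12 held the E-box (50%) and 11 the E2F6 core (45.8%), against 9.76% and 32.6% of all promoters of such genes. Of the 8 with a start in at least 1 sorted set, 1 held the E-box (Sycp1) and 2 the E2F6 core (Sycp1 and Rpl10l), against 4.89% and 15.4% of all promoters of such genes. These are matches of letters in a short window and carry no measure of binding.

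Most germline and meiosis genes, like most protein-coding genes, started outside H3K9me2 domains in every sorted set. The start lay in no sorted set for 28 of 36 genes (77.8%), against 65.8% of all protein-coding genes. It lay in all 4 sorted sets for 2 genes, Nobox and Rpl10l, against 15.1% of all genes. The other 6, Sycp1, Syce1, Asz1, Dazl, Tex101 and Wfdc15a, were inside in some sets, as were 4150 of the 21755. In total 8 of 36 had a start in at least 1 sorted set (11.7 to 38.1), against 34.2% of all genes. The backgrounds of 65.8% and 34.2% lie within these intervals. The 28 starts outside throughout included those of the recombination pair Msh4 and Msh5, all 3 PIWI genes and Tdrd1, Tdrd6 and Tdrd9. The bodies of Tdrd9 and Piwil1 were partly covered in some sets.

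Counts of starts inside were small in every set. In mESC DMSO, 3 starts lay in a domain (8.33%, Wilson 95% interval 2.87 to 21.8), against 22.3% of all genes. In mESC dTAG there were 4 (11.1%, 4.41 to 25.3), against 23.6% of all genes. In 2CLC DMSO there were also 4, against 23.2%. In 2CLC dTAG there were 6 (16.7%, 7.87 to 31.9), against 26.5%. The share was below that of all genes in each sorted set, and the background lay within the interval in mESC dTAG, 2CLC DMSO and 2CLC dTAG. In mESC DMSO it lay just above, but all 36 genes are autosomal, and the share of autosomal genes alone, 21.4%, lay within. The order of the sets turned with the definition of a domain. When domains under 50 kb were left out, the counts were 3 and 3 in mESCs (DMSO and dTAG) and 4 and 2 in 2CLCs, and with domains shortened by 5 kb at both ends 3 and 1, and 4 and 4. Shares over all genes under these changed domains are not given, so the changes cannot be read as particular to the germline genes. The intervals treat genes as draws and cover counting error only.

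**Figure D1:**
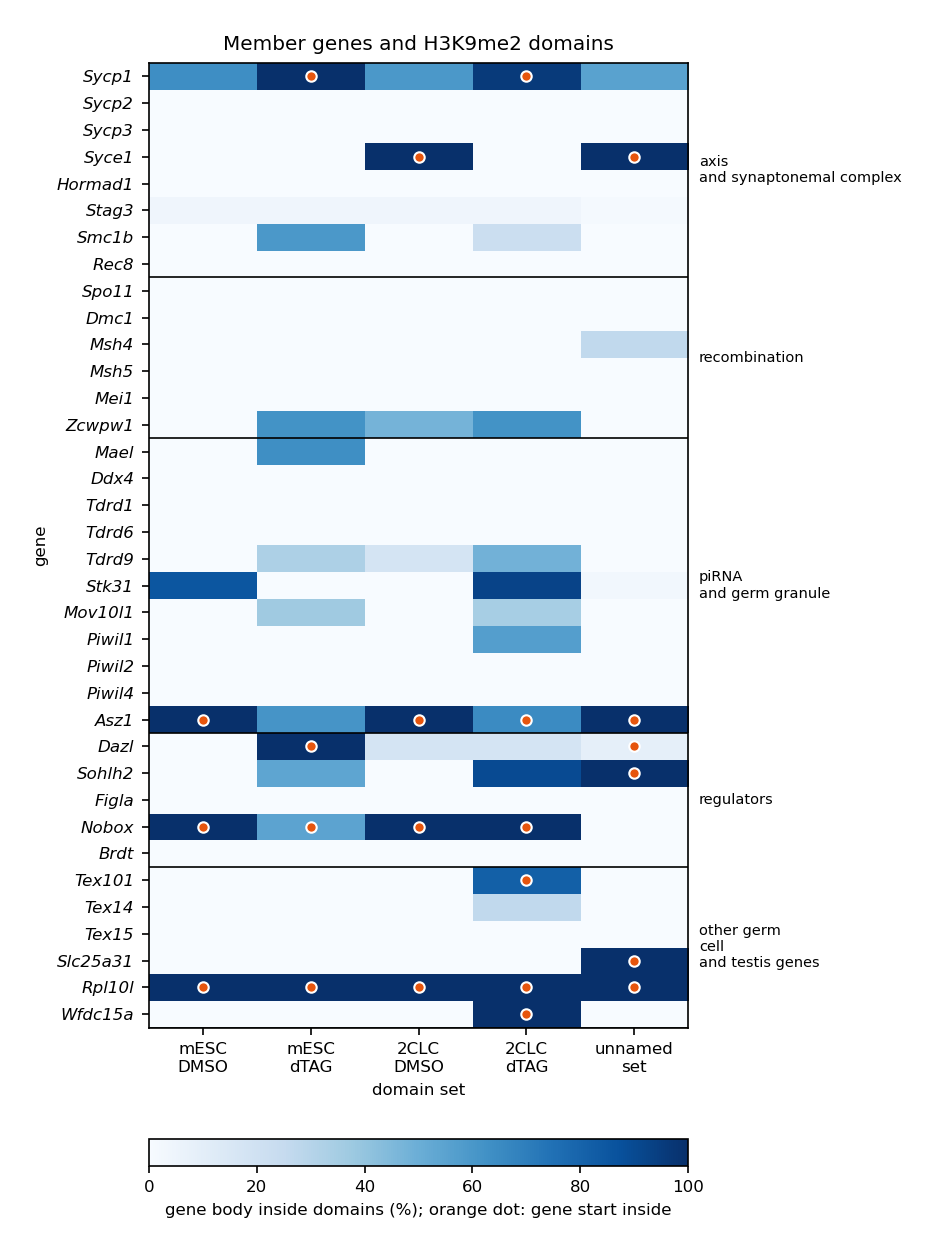
Each row is a gene, grouped by role, and each column a domain set. The blue scale gives the percentage of the gene body inside domains and an orange dot marks a start inside one. Rpl10l is fully covered in all 5 sets, 18 genes have no covered base in any of the 4 sorted sets, and 2CLC dTAG has the most genes with some coverage (16).

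Germline gene bodies were covered less often than those of all genes in both DMSO sets, as starts were. In both dTAG sets they were covered somewhat more often, but the background lay within the Wilson intervals, and gene length was not matched. At least 1 base of the body lay in a domain for 6 genes in mESC DMSO (7.87 to 31.9), against 27.9% of all genes. In mESC dTAG it was 12 (20.2 to 49.7), against 30.9%. In 2CLCs the count was 9 in DMSO (13.8 to 41.1), against 28.4%, and 16 in dTAG (44.4%, 29.5 to 60.4), against 35.3%. The mean share of the body inside domains stood at 12.6% in DMSO and 20.2% in dTAG for mESCs, and at 15.2% and 27.7% for 2CLCs, while over all genes it was 23.2% and 23.1%, and 23.6% and 25.7%. The median was 0 in each sorted set for both. At least 50% of the body was covered for 5 genes in mESC DMSO (6.08 to 28.7), against 23.1% of all genes. In mESC dTAG it was 9 (13.8 to 41.1), against 22.5%. In 2CLCs it was 5 genes in DMSO (6.08 to 28.7), against 23.5%, and 10 in dTAG (15.8 to 44.0), against 25%. No base was covered in any sorted set for 18 genes (50%), against 58.1% of all genes.

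The start lay outside and part of the body inside for 3 genes in mESC DMSO and 8 in mESC dTAG, against 5.54% and 7.32% of all genes. In 2CLCs this held for 5 genes in DMSO and 10 in dTAG (27.8%), against 5.16% and 8.77%. The germline genes are long, with a median of 40.6 kb against 17.4 kb for all genes, and this moves with the measure. Among genes of at least that median length, 6 of 18 germline genes (33.3%) and 22.1% of all genes had this arrangement in 2CLC dTAG, and 4 of 18 and 19.3% in mESC dTAG. Among shorter genes it was 4 of 18 in both dTAG sets, against 3.67% of all shorter genes in 2CLC dTAG and 2.74% in mESC dTAG. Length was not matched within this shorter group, so this is not a comparison at equal length. The 4 in mESC dTAG (Stag3, Zcwpw1, Mael and Sohlh2) were 27.9 to 37.5 kb long, and Stag3 had this arrangement in every sorted set.

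Coverage was also read at set distances from the start, and the side with more coverage differed with the distance. At 50 kb downstream, 10 of 36 positions lay in a domain in mESC dTAG and 12 in 2CLC dTAG (27.8% and 33.3%), against 25.6% and 28.3% of all genes. At 50 kb upstream it was 4 and 6 positions (11.1% and 16.7%), against 28.1% and 31.7%. In DMSO the downstream share was 16.7% in mESCs and 22.2% in 2CLCs, against 25.2% and 25.6% of all genes, and the upstream share 13.9% and 11.1%, against 27.3% and 27.6%. In mESC DMSO the sides thus differed by 1 gene at this distance. At 165 kb in mESC DMSO the upstream share (16.7%) was above the downstream one (8.33%). The distance of 50 kb lies at the highest downstream point in mESC dTAG and next to it in 2CLC dTAG. At 65 kb downstream the counts in these dTAG sets were 6 and 9 (16.7% and 25%), against 26.0% and 28.8% of all genes.

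**Figure D2:**
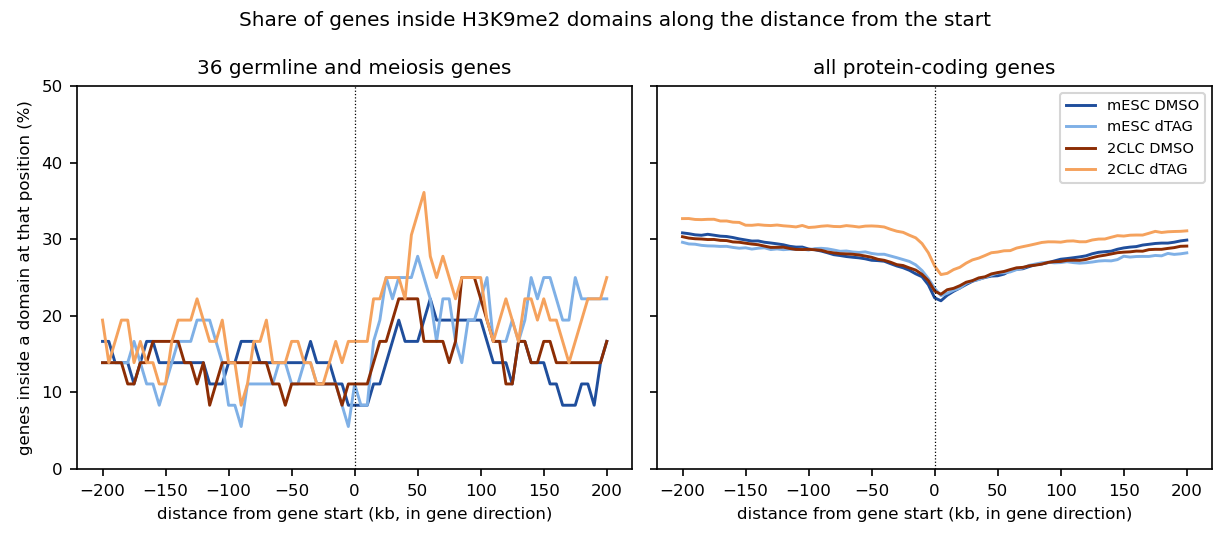
The horizontal axis is the distance from the gene start in kb, positive along the gene, and the vertical axis is the percentage of genes whose position there lies in a domain, with 1 line for each sorted set. The left panel shows the 36 germline and meiosis genes, where a step of 1 gene is 2.78%, and the right panel all 21755 genes. In 2CLC dTAG the germline line stands at 16.7% at the start, at 33.3% at 50 kb downstream, next to its peak, and at 25% at 65 kb.

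To ask what EHMT2 depletion does to the position of these genes, DMSO and dTAG were compared within each cell state. Domains were called from percentiles of the ratio to input, so a gene that enters or leaves a domain, or gains coverage, has changed its place among domains, and the level of the mark there was not measured here. In mESCs, Sycp1 and Dazl entered domains in dTAG, against 6.32% of all genes, and Asz1 left, against 5.08%. In 2CLCs, Sycp1, Tex101 and Wfdc15a entered, against 7.52%, and Syce1 left, against 4.25%. Sycp1 was thus the gene that entered in both cell states, and no share over all genes is given for this. Counts of 1 to 3 among 36 are near the background shares.

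More genes gained a first covered base in the body. Only a gene without coverage in DMSO can do so. Some body was covered in DMSO for 16.7% of the germline genes in mESCs, against 27.9% of all genes. In 2CLCs it was 25%, against 28.4%, so more germline genes were open to this change. In mESCs, 7 genes went from no covered base in DMSO to some in dTAG (19.4%, Wilson 95% interval 9.75 to 35.0), against 7.84% of all genes. These were Smc1b, Zcwpw1, Mael, Tdrd9, Mov10l1, Dazl and Sohlh2. In 2CLCs, 8 did so (22.2%, 11.7 to 38.1), against 10.4% of all genes: Smc1b, Stk31, Mov10l1, Piwil1, Sohlh2, Tex101, Tex14 and Wfdc15a. Smc1b, Mov10l1 and Sohlh2 did so in both, a count for which no share over all genes is given. By RefSeq the Piwil1 domain lies upstream of that gene, so its place in the count rests on the GENCODE start. Without Piwil1 the 2CLC count would equal that of mESCs, whose interval of 9.75 to 35.0 contains 10.4%. In the further list of 47 germline genes described below, 5 (10.6%) did so in mESCs and 7 (14.9%) in 2CLCs. The reverse change was seen for Stk31 in mESCs, against 4.82%, and for Syce1 in 2CLCs, against 3.52%.

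The count was also read by gene length. Among genes of at least 40.6 kb, 3 of 18 germline genes in mESCs and 5 of 18 in 2CLCs newly gained coverage, against 10.9% and 15.3% of all genes that long. Among shorter genes it was 4 of 18 in mESCs and 3 of 18 in 2CLCs, against 6.68% and 8.56%. Here too, length was not matched within the shorter group. In mESCs the 7 dTAG domains that newly reached these bodies were 15 to 65 kb wide, with a median of 40 kb. None of these domains shared a base with a DMSO domain. In 2CLCs the 8 such domains were 15 to 100 kb wide, with a median of 27.5 kb, and 7 shared no base with a DMSO domain. No protein-coding start lay inside 5 of the 7 domains and 6 of the 8. Over all dTAG domains that newly reached the body of any protein-coding gene, the median width was 45 kb in mESCs and 40 kb in 2CLCs, 73.6% and 80.4% shared no base with a DMSO domain, and 37.6% and 45.4% held no coding start. Over all dTAG domains the median width was 60 kb in both states.

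Taken over the whole body, coverage was higher in dTAG for 8 genes in mESCs, against 10.9% of all genes, and lower for 3 (Stk31, Asz1 and Nobox), against 10.2%. In 2CLCs it was higher for 11 genes, against 13.7%, and lower for 2 (Syce1 and Asz1), against 9.14%.

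Among the genes of the axis and synaptonemal complex, 4 of 8 were covered in at least 1 sorted set. Over all genes, 58.1% had no covered base in any sorted set. Sycp1, whose product forms the transverse filaments of the complex, lies at chr3:102818499-102936100 on the minus strand. In mESCs its body was covered by 63.8% with DMSO and 100% with dTAG, and in 2CLCs by 59.5% and 95.7%. In both DMSO sets the start stood 26.7 kb from the edge of a domain of 75 kb (mESC) or 70 kb (2CLC) inside the gene. In mESC dTAG one domain of 145 kb (chr3:102794375-102939374) held the whole gene and no other coding start, with the Sycp1 start 3.28 kb from its edge. In 2CLC dTAG the start lay 8.28 kb inside a domain of 45 kb, next to another of 85 kb in the body. Coverage was higher in dTAG than in DMSO in both states, and the start was inside in dTAG alone.

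Syce1, a central element protein of the same complex, was covered in 1 sorted set only. In 2CLC DMSO its whole body and start lay in a domain of 590 kb (chr7:140204476-140794474) that held 21 coding starts, with the Syce1 start 6.62 kb from the boundary. In the other 3 sorted sets no base was covered, and the nearest domain lay 23.4 kb away in mESC DMSO and mESC dTAG and 93.4 kb away in 2CLC dTAG. In mESC DMSO that nearest domain was 460 kb wide, so Syce1 stood at the border of a wide domain in both DMSO sets.

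The cohesin genes differed among themselves. Smc1b, a meiotic subunit of the ring that holds sister chromatids, had no covered base in DMSO in either state, and 59.5% of its body was covered in mESC dTAG and 22.3% in 2CLC dTAG. The domains, 40 kb and 15 kb wide, began at the same position within the gene (chr15:85073624-85113623 and chr15:85073624-85088623). The nearest domain to its start was 1447 kb away in mESC DMSO and 18.3 kb in mESC dTAG, and 1817 kb and 43.3 kb in 2CLCs. Stag3, another meiotic cohesin subunit, had the last 3.99% of its body in a domain in all 4 sorted sets. Rec8, the cleavable cohesin subunit, had no covered base, and its nearest domain was 157 to 212 kb away.

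Sycp2 and Sycp3, which form the axial elements, and Hormad1, which marks unpaired axes, had no covered base in any sorted set. For Sycp2 the nearest domain lay 30.1 kb from the start in 3 sets and 355 kb in 2CLC DMSO. For Hormad1 it lay 805 kb away in mESC DMSO and 105 kb in mESC dTAG, and 875 kb and 120 kb in 2CLCs.

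**Figure D3:**
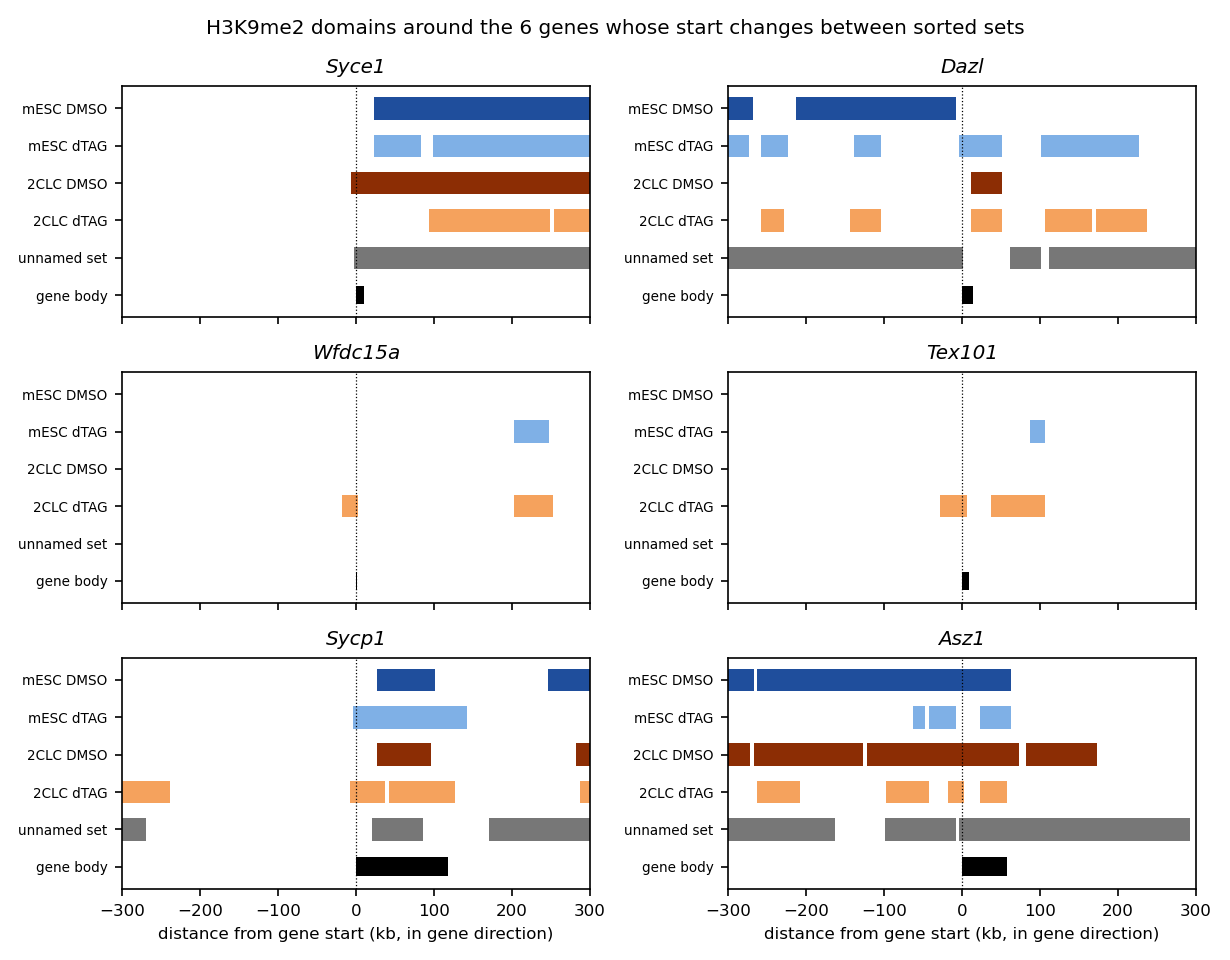
Bars show domains within 300 kb of the start of the 6 genes that lay in a domain in some but not all sorted sets, against the distance from the start in kb along the gene, with 1 line of bars for each set and the gene body in black. Asz1 lies in wide domains in both DMSO sets (325 and 195 kb) and in pieces in dTAG, and Tex101 and Wfdc15a have a domain at their start in 2CLC dTAG only (35 and 20 kb).

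Of the recombination genes, Zcwpw1 alone was covered in a sorted set. It encodes a reader of histone methylation that acts in the repair of meiotic breaks, and 0%, 61.8%, 47.4% and 61.8% of its body lay in domains in mESC DMSO, mESC dTAG, 2CLC DMSO and 2CLC dTAG. mESC DMSO thus stood apart from the other 3 sets. Zcwpw1 and Stag3 lie 492 kb apart on chromosome 5, so their surroundings are not independent.

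The other 5 recombination genes had no covered base in any sorted set, as had 58.1% of all genes. Spo11, which makes the breaks, stood 525 kb from the nearest domain in mESC DMSO and 85.0 kb in mESC dTAG, and 990 kb and 80.0 kb in 2CLCs. Dmc1, the recombinase that pairs broken ends with the homologue, stood farthest from a domain in every sorted set but 2CLC dTAG, at 2091 kb (DMSO) and 1696 kb (dTAG) in mESCs and 2016 kb and 93.5 kb in 2CLCs. Dmc1 and Mei1, a gene needed for break formation, shared 1 gap between domains in DMSO, 4910 kb wide in mESCs and 4860 kb in 2CLCs. Msh5, whose product works with MSH4 on recombination intermediates, had the most crowded surroundings of the 36, with 69 other coding starts within 500 kb on either side.

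In the piRNA and germ granule group, 6 of 11 genes were covered in at least 1 sorted set, while 58.1% of all genes were covered in none. Asz1, a protein of the mitochondrial surface in germ cells, was the one with a start inside. Its body was covered fully in both DMSO sets, by a domain 325 kb wide in mESCs and another 195 kb wide in 2CLCs, and by 61.0% in mESC dTAG and 64.9% in 2CLC dTAG. In mESC dTAG the start stood 7.32 kb outside, in a gap of 30 kb between 2 domains of 35 and 40 kb. In 2CLC dTAG it lay 2.68 kb inside a domain of 20 kb, with a domain of 35 kb farther along the body. The dTAG domains over the gene lay fully within the DMSO ones.

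Mael, a component of nuage, had 63.4% of its body covered in mESC dTAG and no covered base in the other sorted sets. The domain, 65 kb wide (chr1:166159988-166224987), stopped 13.8 kb short of the Mael start, so the promoter printed above lay outside it. Mov10l1, the helicase that feeds piRNA precursors into processing, had none in DMSO, 36.7% in mESC dTAG and 34.6% in 2CLC dTAG, from domains of 30 and 25 kb that began at the same position 45.7 kb from its start. Tdrd9, a Tudor domain helicase, had 0%, 32.8%, 17.3% and 48.2% in mESC DMSO, mESC dTAG, 2CLC DMSO and 2CLC dTAG. In both cell states its coverage was higher in dTAG than in DMSO.

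Stk31, a Tudor domain protein with a kinase-like domain, moved in opposite directions in the 2 states. In mESCs it was covered by 85.5% in DMSO and 0% in dTAG, and in 2CLCs by 0% in DMSO and 92.2% in dTAG. The domains were 110 kb and 100 kb wide and stopped 10.7 kb and 5.74 kb short of the start. The difference between the states was not tested.

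Piwil1, a PIWI protein of pachytene piRNAs, was covered in 2CLC dTAG alone, by 56.7%, from a domain of 30 kb (chr5:128706123-128736122). In GENCODE this domain lies downstream of the start. The RefSeq start lies 33.7 kb farther along, at position 128736246, so by RefSeq the domain lies upstream of the gene's first base. Piwil2 and Piwil4 had no covered base, at 292 to 517 kb and 249 to 401 kb from the nearest domain. Ddx4 (the helicase VASA), Tdrd1 and Tdrd6 had none either, and the Ddx4 start was farther from a domain in mESC dTAG (435 kb) than in mESC DMSO (59.7 kb).

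Among the regulators, Nobox and Dazl had starts inside. Nobox, a homeobox factor of oocytes (chr6:43303674-43309554, minus strand), was fully covered in mESC DMSO, 2CLC DMSO and 2CLC dTAG and covered by 54.5% in mESC dTAG. Its domain was 75 kb, 40 kb, 105 kb and 60 kb wide in mESC DMSO, mESC dTAG, 2CLC DMSO and 2CLC dTAG. Both dTAG domains were narrower than their DMSO counterparts and lay fully inside DMSO domains.

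Dazl, an RNA-binding protein needed for germ cell entry into meiosis (chr17:50279395-50293636, minus strand), was uncovered in mESC DMSO and fully covered in mESC dTAG. In mESC DMSO its start stood 8.31 kb from a domain of 205 kb. In mESC dTAG it lay 3.31 kb inside a domain of 55 kb (chr17:50241948-50296947), of which no base was in a domain in mESC DMSO. In both 2CLC sets a domain of 40 kb that starts at the same position covered 17.9% of the body and ended 11.7 kb from the start. The surroundings were sparse, with 2 other coding starts in the 1 Mb around it.

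Sohlh2, a helix-loop-helix factor of early germ cells, had no covered base in DMSO, 53.7% in mESC dTAG and 89.5% in 2CLC dTAG. Its domains were 15 and 25 kb wide, shared their far boundary and began 12.4 kb and 2.41 kb downstream of the start. Figla, a factor of oocyte follicle formation, and Brdt, the testis member of the BET proteins, had none. The nearest domain to Brdt lay 945 kb away in mESC DMSO and 950 kb in 2CLC DMSO, and 65.0 kb in both dTAG sets.

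Among the remaining genes, Rpl10l alone started inside in every sorted set. This intronless testis copy of the ribosomal protein gene Rpl10 (chr12:66283379-66284401, minus strand) lay in mESC domains of 580 kb (DMSO) and 530 kb (dTAG) and in 2CLC domains of 510 kb and 355 kb. In each it was the only coding start, at least 152 kb from the boundary, and no other coding start lay within 500 kb.

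Tex101 and Wfdc15a entered domains in 2CLC dTAG alone. Tex101, a surface protein of testicular germ cells, had 81.3% of its body in a domain of 35 kb, and its start stood 497 kb, 87.0 kb and 502 kb from a domain in mESC DMSO, mESC dTAG and 2CLC DMSO. Wfdc15a, of a family of protease inhibitor-like proteins, was fully covered by a domain of 20 kb (chr2:164197760-164217759), with the start 2.37 kb inside. In DMSO it lay in the widest gaps among these genes, 7390 kb in mESCs and 8955 kb in 2CLCs, and in one of 2810 kb in mESC dTAG. Neither domain of 2CLC dTAG shared a base with a domain of 2CLC DMSO.

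Tex14, a protein of the bridges between germ cells, had 26.5% of its body covered in 2CLC dTAG by a domain of 40 kb that began 54.7 kb from the start. Tex15 and Slc25a31, a germ cell ADP/ATP carrier, had no covered base in the sorted sets. The Tex15 start stood 13.8 to 18.8 kb from a domain in each of the 4 sets.

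The domains around the starts were narrower in dTAG. The median width of domains holding a start of these genes came to 325 kb in mESC DMSO (3 genes) and 100 kb in mESC dTAG (4), and in 2CLCs 352 kb with DMSO (4) and 40 kb with dTAG (6). For all genes inside domains these medians were 640 and 390 kb, and 735 and 260 kb. None of the 7 placements in DMSO was within 5 kb of a boundary, against 8.78% of all starts inside in mESCs and 8.47% in 2CLCs. In dTAG, 3 of 4 in mESC dTAG (Sycp1, Dazl and Nobox) and 2 of 6 in 2CLC dTAG (Asz1 and Wfdc15a) were, against 12.6% and 14.3%. A distance of 5 kb is 1 step of the domain grid, and the averaging window spans 10 kb.

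The nearest domain was mostly closer in dTAG, as for genes at large. Over all 36 genes, with a distance of 0 for a start inside, in mESCs it was closer for 24 genes (66.7%), against 55.2% of all genes, and farther for 7, against 21.5%. In 2CLCs it was closer for 27 (75%), against 60.8%, and farther for 4, against 15.2%. Of the 31 genes outside in both mESC sets, 22 were closer in dTAG, against 68.5% of all such genes, and the median distance was 311 kb in DMSO and 105 kb in dTAG, against 348 and 161 kb over all such genes. Of the 29 in 2CLCs, 24 (82.8%) were closer, against 77.0%, and the median was 304 kb and 65.0 kb, against 363 and 114 kb. The gap between domains that held a gene outside had a median of 1295 kb in mESC DMSO and 695 kb in mESC dTAG, and of 1552 kb and 447 kb in 2CLCs, against 1500, 730, 1580 and 540 kb over all genes outside.

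**Figure D4:**
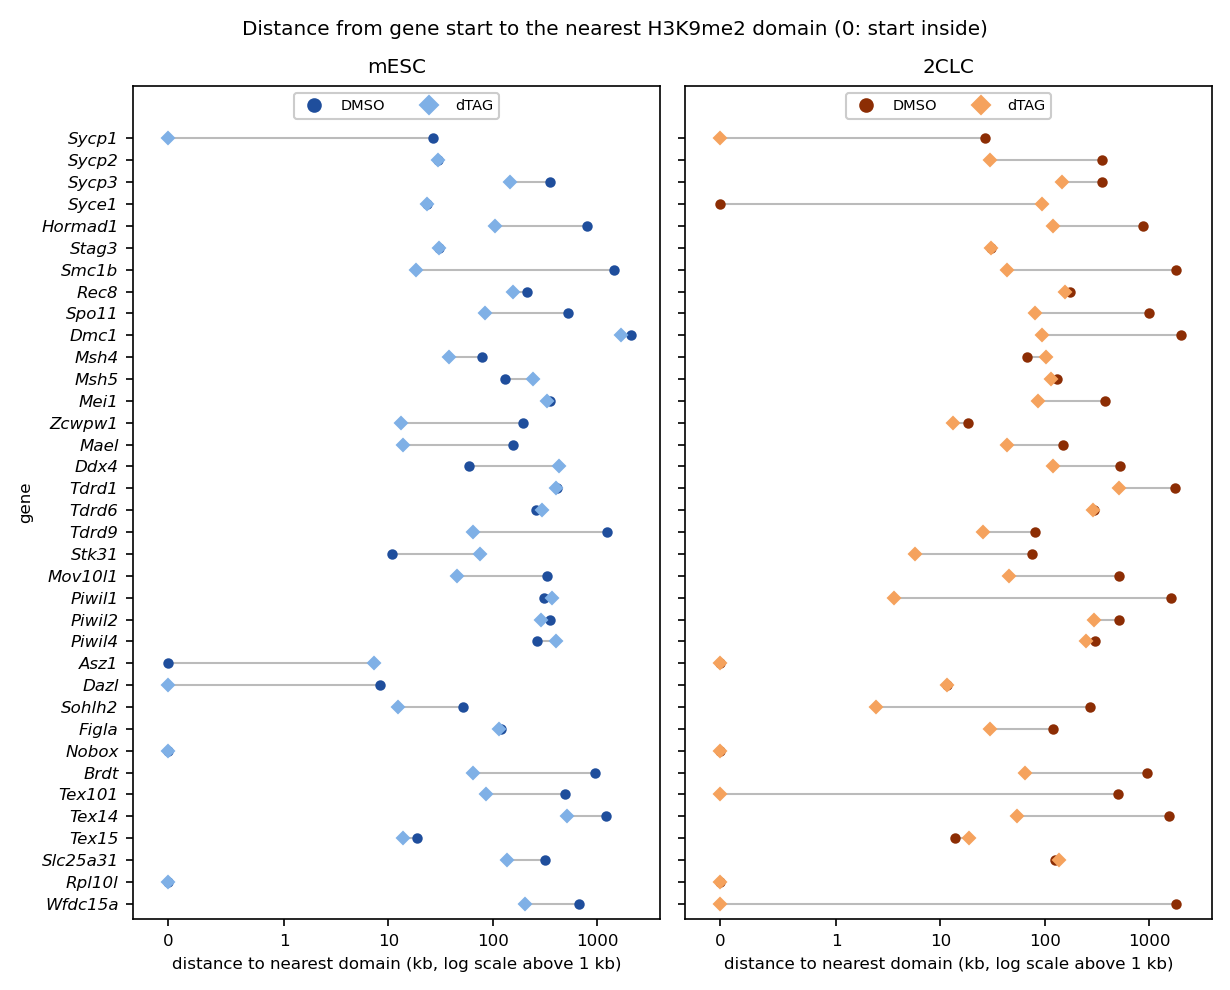
Each line is a gene, with the distance from its start to the nearest domain in kb on a log scale above 1 kb (0 when the start is inside), for mESCs on the left and 2CLCs on the right. Circles are DMSO and diamonds dTAG, and 27 of 36 diamonds in 2CLCs and 24 of 36 in mESCs lie to the left of their circle.

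Between cell states, Syce1 was the only gene whose start differed in DMSO, inside in 2CLCs, against 7.09% of all genes. In dTAG 4 starts differed, against 9.56%. Dazl was inside in mESCs, and Asz1, Tex101 and Wfdc15a were inside in 2CLCs.

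The neighbourhoods of the 36 genes were slightly sparser than those of genes at large. The median number of coding starts in the 1 Mb around the start was 12.5 (range 0 to 69), against 16 over all genes. Genes in sparser surroundings lay in domains more often, with 25.8% of all genes below 12.5 and 19.9% of those above it inside in mESC DMSO, and 30.5% and 23.7% in 2CLC dTAG. Among the germline genes, 2 of 18 and 1 of 18 were inside in mESC DMSO, and 3 of 18 on each side in 2CLC dTAG. In the 100 kb around the start, the median GC share was 43.4% and the median soft-masked (repeat) share 29.5%, against 44.3% and 30.4%. The soft-masked share was 33.7% for the 8 genes with a start in a sorted set and 29.1% for the 28 without.

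A further list of 47 germline genes with no member of the 36 gave starts in domains for 3, 8, 6 and 11 genes in mESC DMSO, mESC dTAG, 2CLC DMSO and 2CLC dTAG. These are 6.38%, 17.0%, 12.8% and 23.4%, against 22.3%, 23.6%, 23.2% and 26.5% of all genes. In mESCs 5 (10.6%) entered with dTAG (Henmt1, Syce3, Hfm1, Rbm46 and Taf7l), against 6.32% of all genes, and none left, against 5.08%. In 2CLCs 6 (12.8%) entered (Henmt1, Hfm1, Rnf212, Tex11, Lhx8 and Zp2), against 7.52%, and Rbm46 left, against 4.25%. Mei4, Nlrp5 and Bmp15 (6.38%) were inside in all 4 sorted sets, against 15.1% of all genes. The body without the start was covered in 3 of the 47 (6.38%) in each dTAG set, against 7.32% of all genes in mESCs and 8.77% in 2CLCs. Among the 36 it was 8 and 10, and the difference between the lists was not tested.

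The unnamed set held 6 starts, against 30% of all genes, and some part of the body of 10 genes, against 37.3%. The 6 were Syce1, Asz1, Dazl, Sohlh2, Slc25a31 and Rpl10l. Their domains were 75 to 520 kb wide. Rpl10l alone was inside in all 5 sets.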

How the data were processed

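H3K9me2 was profiled by native chromatin immunoprecipitation from small numbers of cells (ULI-NChIP, antibody ab1220). The study's methods state 100k cells for the bulk mESCs and no number for the sorted groups. Per the study's methods and the submitters' processing notes, the authors trimmed reads with Trim Galore, aligned them with STAR 2.7.10 so that reads with several matches were kept at one best location, and used Picard 2.26.0, SAMtools 1.14, bedtools 2.30.0, deepTools 3.5.1 and R 4.1.2. Coverage was averaged in 10 kb windows on a 5 kb grid, and domains were grown from bins above a high percentile of the log2 ratio over input until a low percentile was reached. The sources do not state pooling of replicates or limits set for each list. The deposited values are positions (mm10) with a score of 0.

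Starts and bodies came from GENCODE M21, promoters from RefSeq (GRCm38.p6). A start counted as inside when its base lay in a domain. Overlaps were computed with Python 3.11.15 and numpy 2.4.6, tested on simulated intervals, and figures were drawn with matplotlib 3.10.9. With 1 list for each group, no test was run. All 36 genes are described, in full those with a start in any sorted set or a covered body, and those near a domain. The genes and lists were chosen with earlier results of these data known. Alternatives were other definitions of inside, minimum width, shifted boundaries, joined domains and RefSeq starts.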

Additional observations from a re-analysis of the deposited data

Results flagged for a closer look

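Stk31 moved in opposite directions in the 2 cell states. With dTAG, the share of its body inside domains was lower by 85.5 percentage points in mESCs (a change of -85.5) and higher by 92.2 percentage points in 2CLCs. The difference was not tested, since each group has a single list.

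The unnamed set, which belongs to no group, held 6 starts of the 36 genes. Syce1, Asz1, Dazl and Rpl10l were also inside in at least 1 sorted set. Sohlh2 and Slc25a31 were inside in the unnamed set and outside in all 4 sorted sets, in domains of 335 kb and 75 kb. Nobox, inside in all 4 sorted sets, stood 17.3 kb outside a domain of 995 kb there.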

How the results depend on the processing

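With any annotated transcript start counted, 8 genes were inside in mESC dTAG, 5 entered in mESCs and 4 differed between states in DMSO. With at least 50% of the body required, 5, 9 and 10 were inside in mESC DMSO, mESC dTAG and 2CLC dTAG, 5 and 6 entered in mESCs and 2CLCs, 2 and 7 differed between states in DMSO and dTAG, and 7 of the further germline genes were inside in 2CLC dTAG. With any base of the body, 6, 12, 9 and 16 were inside in mESC DMSO, mESC dTAG, 2CLC DMSO and 2CLC dTAG, 7 and 8 entered, and 5 differed in DMSO. With domains shortened by 5 kb at both ends, 1 was inside in mESC dTAG, 0 entered and 2 left in mESCs, and 2 left in 2CLCs. With domains lengthened by 5 kb, 5 entered in 2CLCs. With domains of at least 50 kb only, 2 were inside in 2CLC dTAG, then the lowest count of the sorted sets, 2 left in mESCs, and 0 entered and 2 left in 2CLCs. Shares over all genes are not given for transcript starts or for changed domains. Nor are they given for entering or differing at 50% of the body, or for differing at any base. Those counts cannot be read as particular to the germline genes. Without chromosome X, the share of all starts inside was 21.4, 22.8, 22.1 and 25.5%. The other 73 values stayed within 1.5 times the main ones or within its interval, including those from RefSeq starts (added after seeing the data) and joined domains. In promoter windows within 500 bp of the GENCODE start, also added later, 44.4% of 27 genes held the E-box, against 8.69% of all.

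Library depth is unknown. No replicate was left out, as each group has a single list. No paired analysis was possible because the lists carry no values by replicate.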
